A study of Macaca mulatta with 24 samples.

Results

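The genes described here are the drug-metabolizing enzymes of the jejunum outside the CYP1A and CYP1B families: cytochromes P450 (CYP), UDP-glucuronosyltransferases (UGT), sulfotransferases (SULT) and glutathione S-transferases (GST). Members were all array probes whose gene symbol in the authors' table begins with CYP, UGT or SULT and a digit, or with GST, a letter and a digit, without CYP1A, CYP1B and CYP24A1 probes. This gave 92 probes for 61 gene symbols, of 43603 probes on the array: 48 CYP, 16 UGT, 12 SULT and 16 GST probes. Expression was measured on 24 single-color Agilent arrays, each with RNA from whole jejunum wall of 1 rhesus macaque, in animals described in the study's methods as young-adult males. The 7 groups were sham-irradiated controls (n = 4, labelled day 4) and animals given a single uniform whole-body dose of cobalt gamma rays (TBI), either 6.7 Gy or 7.4 Gy, whose jejunum was taken on day 4 (n = 4 per dose), day 7 (n = 4 per dose) or day 12 (n = 2 per dose). The treatment text in the labels gives 21 days for the last time point, where sample titles and the methods give 12. The labels name no drug or genetic change in any group, each animal was sampled once, and the same 4 controls served for both doses and all days.

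CYP enzymes oxidize drugs, steroids, fatty acids, retinoids and vitamin D, with electrons passed on by P450 oxidoreductase and cytochrome b5. UGT enzymes then attach glucuronic acid, SULT enzymes attach sulfate and GST enzymes attach glutathione, which makes the products easier to export. In the small bowel these enzymes sit mainly in mature absorptive enterocytes of the villus, where CYP3A oxidizes many oral drugs before they reach the liver, and much of their basal expression depends on enterocyte transcription factors and on nuclear receptors such as the pregnane X receptor. Many family members are close paralogs with similar sequences, so which gene a probe measures is uncertain within the CYP2, CYP3A, UGT2B, SULT1A and GSTA groups.

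Levels are log2 signal minus the 75th percentile of the same array, so levels are compared between arrays for 1 probe at a time, and between probes of a gene they served only to choose which one a plot shows. Testing was limited to probes that the scanner software called well above background in all arrays of some group. By this rule 65 member probes (70.7%) of 50 symbols were tested: 30 CYP, 12 UGT, 8 SULT and 15 GST probes. The whole set of 24 arrays detected 43 of the 92 probes. The 11 symbols with no tested probe were CYP2B6, CYP4F22, CYP4V2, CYP7A1, CYP11B2, CYP17A1, CYP19A1, CYP27B1, GSTM3, SULT6B1 and UGT3A2. A call needs an adjusted p under 0.05 over the 28171 probes tested (limma, Benjamini-Hochberg) and at least a 2-fold change. With 1 animal per array, p-values measure the spread between these animals.

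The arrays were not equally sensitive. The lowest signal well above background was 130 to 277 on slide 5, 40.6 to 83.0 on slide 4 and 7.03 to 31.8 on the other slides. The 4 controls all lay at position 1 of their slides, a position shared with 2 irradiated arrays (6.7 Gy day 4, replicates 1 and 2), and slides 5 and 6, scanned on a second day, held no control. On day 12 the 6.7 Gy arrays lay on slides 3 and 4 and the 7.4 Gy arrays on slides 5 and 6. Dose cannot be told apart from slide or scan day in that comparison. Between-animal spread was also wide among the enzymes: the median within-group SD was 0.57 over the 65 tested member probes and 0.33 over all probes tested, and 21 member probes lay above 0.66, the 90th percentile of all probes.

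Most calls against control fell on day 4, and all but 1 of these enzymes were lower. After 6.7 Gy, 5 of 65 tested member probes were called, all lower, where 1.98% of all probes were called (1.25% higher, 0.731% lower). The 5 called were both GSTA1 probes, CYP2D6, SULT2A1 and GSTZ1. At an unadjusted p under 0.05 and 2-fold, 9 members passed, beside 3.73% of all probes. After 7.4 Gy, 3 of 65 were called, CYP2D6 and 1 GSTA1 probe lower and CYP1D1 higher, where 2.6% of all probes were called (1.71% higher, 0.887% lower), and 5 members passed the unadjusted limits, beside 4.48% of all probes. The median log2 change of the 65 probes was -0.23 after 6.7 Gy and -0.33 after 7.4 Gy, beside -0.06 and -0.08 over all probes tested, and 19 and 11 of the 65 lay above control, beside 43.2% and 41.7% of all probes. Both comparisons used the same controls. In whole tissue, fewer cells of a type and less RNA per cell cannot be told apart.

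Few calls against control were made at the later times. On day 7, 1 of 65 was called after 6.7 Gy (SULT1B1, higher; 0.0639% of all probes, 0.0213% higher and 0.0426% lower; 6 members at an unadjusted p under 0.05 and 2-fold, beside 1.56% of all probes) and none after 7.4 Gy (limma; 0.288% of all probes, 0.117% higher and 0.17% lower; 8 members at an unadjusted p under 0.05 and 2-fold, where 2.97% of all probes passed the same limits; none by the methods' t-test). On day 12, 1 was called after 6.7 Gy (UGT3A1, higher; 0.0071% of all probes, all higher; 5 members at an unadjusted p under 0.05 and 2-fold, beside 1.83% of all probes) and none after 7.4 Gy (limma; 0.00355% of all probes; 5 members at an unadjusted p under 0.05 and 2-fold, beside 2.55% of all probes; none by the methods' t-test). Median log2 changes of the members were -0.07 and -0.22 on day 7 and -0.06 and -0.14 on day 12, with the lower dose first. In the plot of changes by gene and group, CYP2D6 and GSTA1 are darkest in the day 4 columns.

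**Figure D1:**
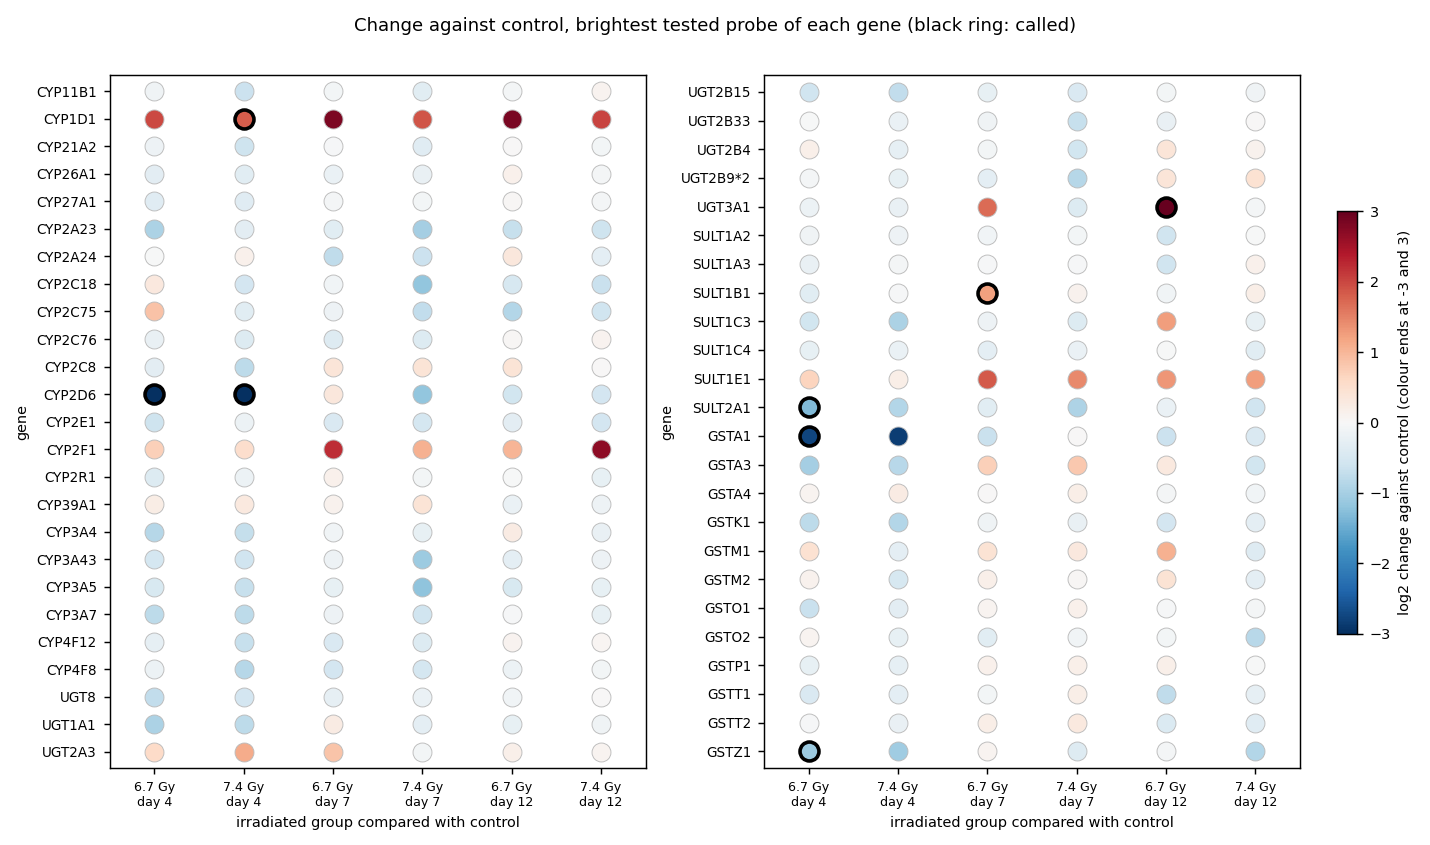
Log2 change against control (color, from -3 to 3) for the tested probe with the highest mean level of each gene shown (rows) in the 6 irradiated groups (columns, n = 4 on days 4 and 7 and n = 2 on day 12, against 4 controls); a black ring marks a call. CYP2D6 is ringed on day 4 at both doses, and GSTA1 reads -2.75 and -2.85 on day 4, ringed at 6.7 Gy.

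When the later days were compared with day 4 at the same dose, in 1 model of all 24 arrays, every called member was higher on the later day. After 6.7 Gy, 6 of 65 probes were higher on day 7 (1.55% of all probes called, 0.795% higher and 0.753% lower): GSTA1, GSTA3, GSTZ1, CYP2D6, UGT1A1 and SULT1B1. On day 12, 2 were higher (0.951% of all probes called, 0.419% higher and 0.532% lower), UGT3A1 and GSTA1. After 7.4 Gy, 3 were higher on day 7 (1.64% of all probes called, 0.852% higher and 0.792% lower), both GSTA1 probes and GSTA3, and 2 on day 12 (2.42% of all probes called, 0.816% higher and 1.6% lower), GSTA1 and CYP2F1. The member medians were 0.35, 0.35, 0.16 and 0.26 in that order, beside 0.06, 0.09, 0.04 and 0.07 over all probes tested. At an unadjusted p under 0.05 and 2-fold, 14, 14, 6 and 6 members passed, beside 3.3%, 4.82%, 3.1% and 6.5% of all probes. At each dose, the day 7 and the day 12 comparison shared the day 4 arrays.

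Among the cytochromes P450, CYP2D6 had the largest called fall. CYP2D6 oxidizes many basic drugs such as antidepressants and beta blockers; the accession behind this probe (A_01_P1671126) now carries only a locus name in RefSeq (assembly T2T-MMU8v2.0). Its levels in the 4 controls were 3.09, 2.64, 1.51 and 1.77. The day 4 animals given 6.7 Gy were at -1.25, 0.58, -1.12 and -1.61, those given 7.4 Gy at -1.02, -0.90, -0.35 and -1.21. Every day 4 array lay below every control, and in 7 of the 8 the level was negative. The log2 change was -3.10 ± 0.51 (SE, adjusted p = 0.019, limma) after 6.7 Gy and -3.12 ± 0.35 (adjusted p = 0.00536) after 7.4 Gy, or 8.59-fold and 8.71-fold lower. On the slides that held a control and a day 4 array, the differences were -4.21 and -4.24 (slides 1 and 2, 6.7 Gy) and -2.53 and -2.67 (slides 3 and 4, 7.4 Gy). With slide as a block the changes were -4.23 and -2.60 (adjusted p = 0.059 and 0.28), and with position as a block -2.59 and -2.10 (adjusted p = 0.224 and 0.646), so neither call passed in those fits. Those fits rest on few arrays, since only the slides named held both groups and all controls lay at position 1. A call lost there therefore decides little. The call after 6.7 Gy was lost without control replicate 1 or 2 or irradiated replicate 3 or 4 (log2 changes -3.01 to -2.82, adjusted p from 0.0513 to 0.0645), while that after 7.4 Gy was kept in all 8 such fits. Of 13 settings other than leaving out 1 array, 7 kept the call after 6.7 Gy and 11 that after 7.4 Gy.

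On day 7 CYP2D6 was at 3.75, 3.57, 1.79 and 1.29 after 6.7 Gy, with 2 animals above the highest control, 1 within the control range and 1 just below it. The log2 difference from day 4 at that dose was 3.45 ± 0.86 (adjusted p = 0.0281). It was lost without day 4 replicate 1, 3 or 4 or day 7 replicate 1 or 2 (differences 3.07 to 3.36, adjusted p from 0.0542 to 0.0949). After 7.4 Gy the 4 animals were scattered on day 7, at 2.08, -1.96, 3.76 and 0.40, from the lowest to the highest level of this probe on any array. The difference from day 4, 1.94 ± 0.86, was not called (adjusted p = 0.205). Without day 7 replicate 2 it was 2.95 and called (adjusted p = 0.0376). On day 12 CYP2D6 was at 2.60 and 0.75 in the 6.7 Gy animals and at 1.95 and 1.45 in the 7.4 Gy animals.

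CYP3A enzymes, the main drug-oxidizing CYPs of the gut, were measured by 6 tested probes of CYP3A4, CYP3A5, CYP3A7 and CYP3A43. All 6 were below control on day 4 at both doses, with medians of -0.76 and -0.64, but none was called (limma; 1 probe, CYP3A43 A_01_P1760817, at an unadjusted p under 0.05 and 2-fold, -1.69 after 6.7 Gy). CYP3A4 was at 6.65, 6.60, 6.23 and 6.29 in controls, at 6.23, 5.64, 5.62 and 4.89 on day 4 after 6.7 Gy and at 5.05, 6.95, 6.14 and 4.79 after 7.4 Gy. The SD between animals was 0.21 in controls, 0.55 after 6.7 Gy and 1.00 after 7.4 Gy, where 1 animal lay above all controls. The log2 changes were -0.85 ± 0.27 (adjusted p = 0.113) and -0.71 ± 0.43 (adjusted p = 0.344). CYP3A5, the other common adult gut form, had its lowest mean on day 7 after 7.4 Gy, at 4.79, 4.23, 5.22 and 3.82, all below the controls (5.85, 5.81, 5.44 and 5.76). That change, -1.20 ± 0.29, was not called either (adjusted p = 0.103).

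The CYP2C probes described are those of CYP2C75, CYP2C18, CYP2C8 and CYP2C76, from a family that oxidizes arachidonic acid and many drugs. CYP2C75 was at 1.95, 2.15, 0.82 and 1.89 in controls, at 1.92, 1.68, 3.44 and 3.33 on day 4 after 6.7 Gy and at 1.15, 1.16, 1.97 and 1.16 after 7.4 Gy. Replicates 3 and 4 of the 6.7 Gy group lay above all controls, and the other animals lay within the control range. The log2 changes were 0.89 ± 0.46 (adjusted p = 0.31, not called) and -0.34 ± 0.32 (adjusted p = 0.548). Its accession is now named CYP2C18 in RefSeq, and the probe labelled CYP2C18 carries a locus name there. That probe changed by 0.32 and -0.54 on day 4, and by -1.18 ± 0.28 on day 7 after 7.4 Gy (adjusted p = 0.106, not called). The 2 probes of CYP2C8 differed in direction after 6.7 Gy, at -0.33 (A_01_P1671116) and 0.92 (A_01_P1730071), and read -0.79 and -0.38 after 7.4 Gy. CYP2C76 changed by -0.23 and -0.41, and no change of CYP2C8 or CYP2C76 on day 4 was called.

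CYP2F1, an enzyme best known from the lung, where it activates naphthalene, had 3 tested probes that moved alike. On day 4 after 7.4 Gy the called probe (A_01_P1672461) was at -2.49, -1.15, -1.28 and -2.22, and on day 12 at 0.12 and -0.08. Both day 12 animals lay above all others of the series. The log2 difference was 1.80 ± 0.47 (adjusted p = 0.0383), and the other probes gave 2.17 and 2.08 (adjusted p = 0.0892 and 0.0568, not called). The call was lost without day 4 replicate 1 or 4 or either day 12 array (1.57 to 1.90, adjusted p from 0.0644 to 0.341), and 4 of 12 other settings kept it. Those that ended it, among them the common floor, no filter on dim probes and slide or scan day as a block, gave 1.55 to 1.87. Against control the 3 probes gave 2.69, 1.71 and 2.09 on day 12 after 7.4 Gy and 2.22, 1.15 and 1.55 on day 7 after 6.7 Gy, none called (limma; all 6 changes at an unadjusted p under 0.05 and 2-fold).

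CYP1D1, an active CYP1 family member in macaques whose human counterpart is a pseudogene, was called higher on day 4 after 7.4 Gy (1.81 ± 0.42, adjusted p = 0.0458). Its signal was near the limit of detection, at -6.17, -5.00, -5.17 and -5.08 in controls and at -4.31, -4.23, -2.77 and -2.88 in that group, and 3 of the 4 controls and 2 of the 4 irradiated arrays were well above background. The probe passed the detection filter only through the groups given 6.7 Gy, so signal there was a condition of testing it. Without the filter on dim probes the change was not called. The call was lost when any 1 of the 8 arrays was left out (1.53 to 2.06, adjusted p from 0.0557 to 0.1), and with all arrays set to a common detection floor the change was 0.00. In the other 5 irradiated groups the mean was also above control, by 1.88 to 2.84, with no call (limma; all 5 at an unadjusted p under 0.05 and 2-fold).

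The remaining CYPs had no call. CYP27A1, the mitochondrial sterol 27-hydroxylase of bile acid synthesis, was at 5.59 to 6.02 in controls and changed by -0.37 at both doses on day 4. CYP4F12 and CYP4F8, fatty acid and eicosanoid hydroxylases, changed by -0.69 and -0.85 on day 4 after 7.4 Gy with no overlap with controls, under 2-fold and not called (adjusted p = 0.0754 and 0.0623). CYP2R1, a vitamin D 25-hydroxylase, and CYP39A1, an oxysterol 7-hydroxylase, changed by -0.40 to 0.41 in all 6 groups against control. CYP2E1, CYP26A1, CYP21A2, CYP11B1, CYP2A23 and CYP2A24 had no call in the 13 comparisons (limma; 1 of them, CYP2A23, reached an unadjusted p under 0.05 and 2-fold, -1.01 on day 7 after 7.4 Gy).

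**Figure D2:**
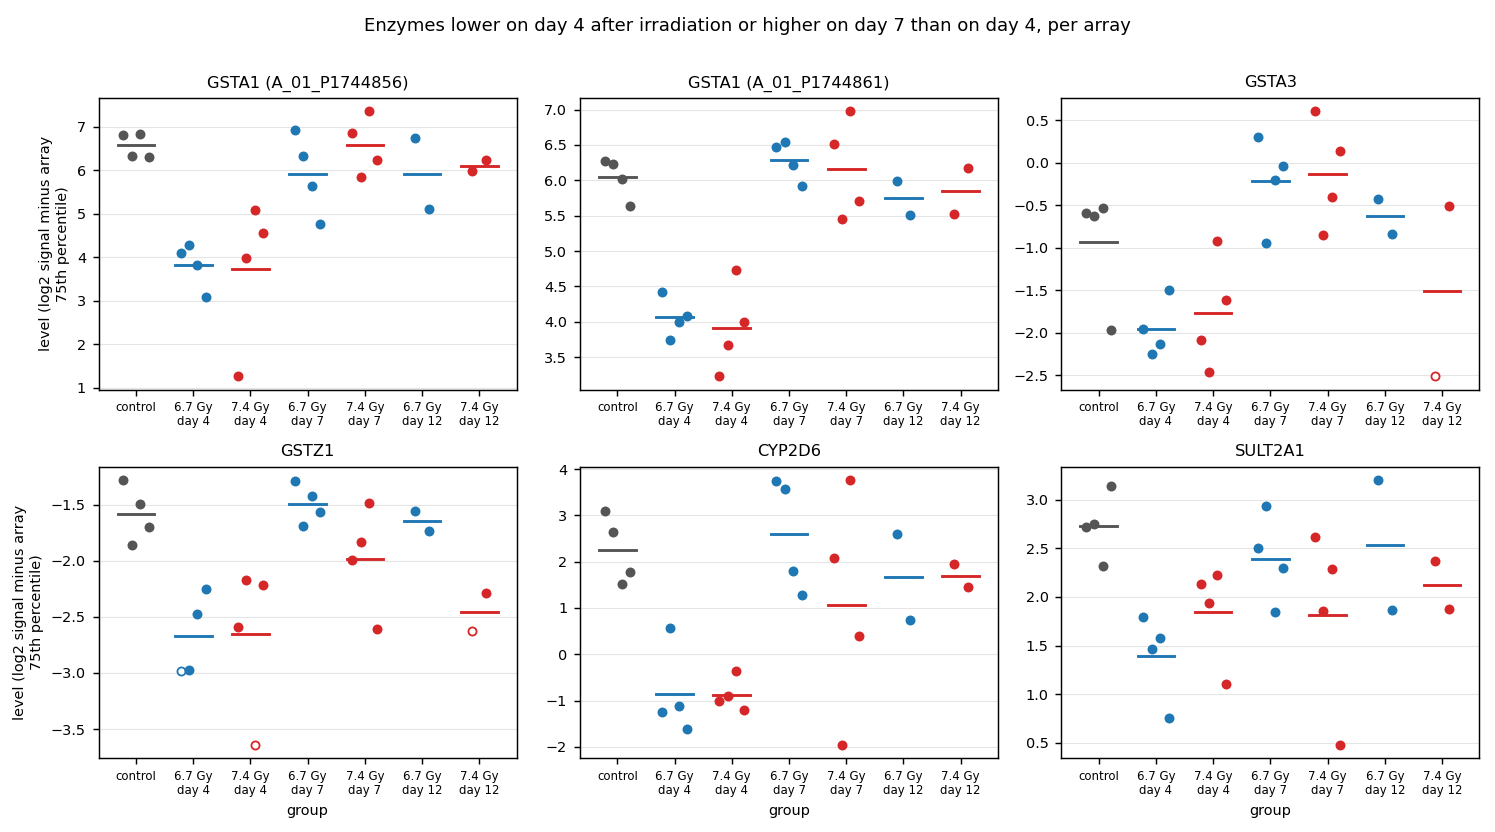
Level (log2 signal less that array's 75th percentile) of GSTA1 (both probes), GSTA3, GSTZ1, CYP2D6 and SULT2A1 on each of the 24 arrays by group; points are single animals, open where the probe was not well above background, and bars are group means. The day 4 points of GSTA1 and CYP2D6 lie below all controls, while the day 7 points of CYP2D6 run from -1.96 to 3.76 and those of the first GSTA1 probe from 4.76 to 7.35.

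Among the UGTs, UGT1A1, which glucuronidates bilirubin and many drugs, was at 4.88, 4.45, 4.30 and 4.36 in controls. On day 4 it was at 4.08, 3.90, 3.32 and 2.86 after 6.7 Gy and at 3.95, 3.93, 3.69 and 3.31 after 7.4 Gy, below all controls. The changes of -0.96 ± 0.28 and -0.78 ± 0.20 were not called (adjusted p = 0.0919 and 0.0567). On day 7 after 6.7 Gy it was at 4.49, 5.21, 4.87 and 4.38, which was 1.20 ± 0.29 above day 4 (adjusted p = 0.0257). That call was lost without day 4 replicate 3 or 4 or day 7 replicate 2 or 3 (0.97 to 1.16, adjusted p from 0.0651 to 0.0931). UGT2B15, which glucuronidates androgens and drugs such as oxazepam, was also below all controls on day 4 by its probe A_01_P003800, with no call (-0.59 and -0.73, adjusted p = 0.14 and 0.069). Its second probe (A_01_P017141) gave -0.96 and -0.83 on day 4, and its lowest value, -1.18 ± 0.24, on day 7 after 7.4 Gy (adjusted p = 0.0739). UGT8, the galactosyltransferase of myelin lipids, changed by -0.74 and -0.56 on day 4. UGT2A3, a bile acid glucuronidating form, spread from -1.49 to 1.80 among the controls alone, and its changes of -0.09 to 1.12 were not called.

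**Figure D3:**
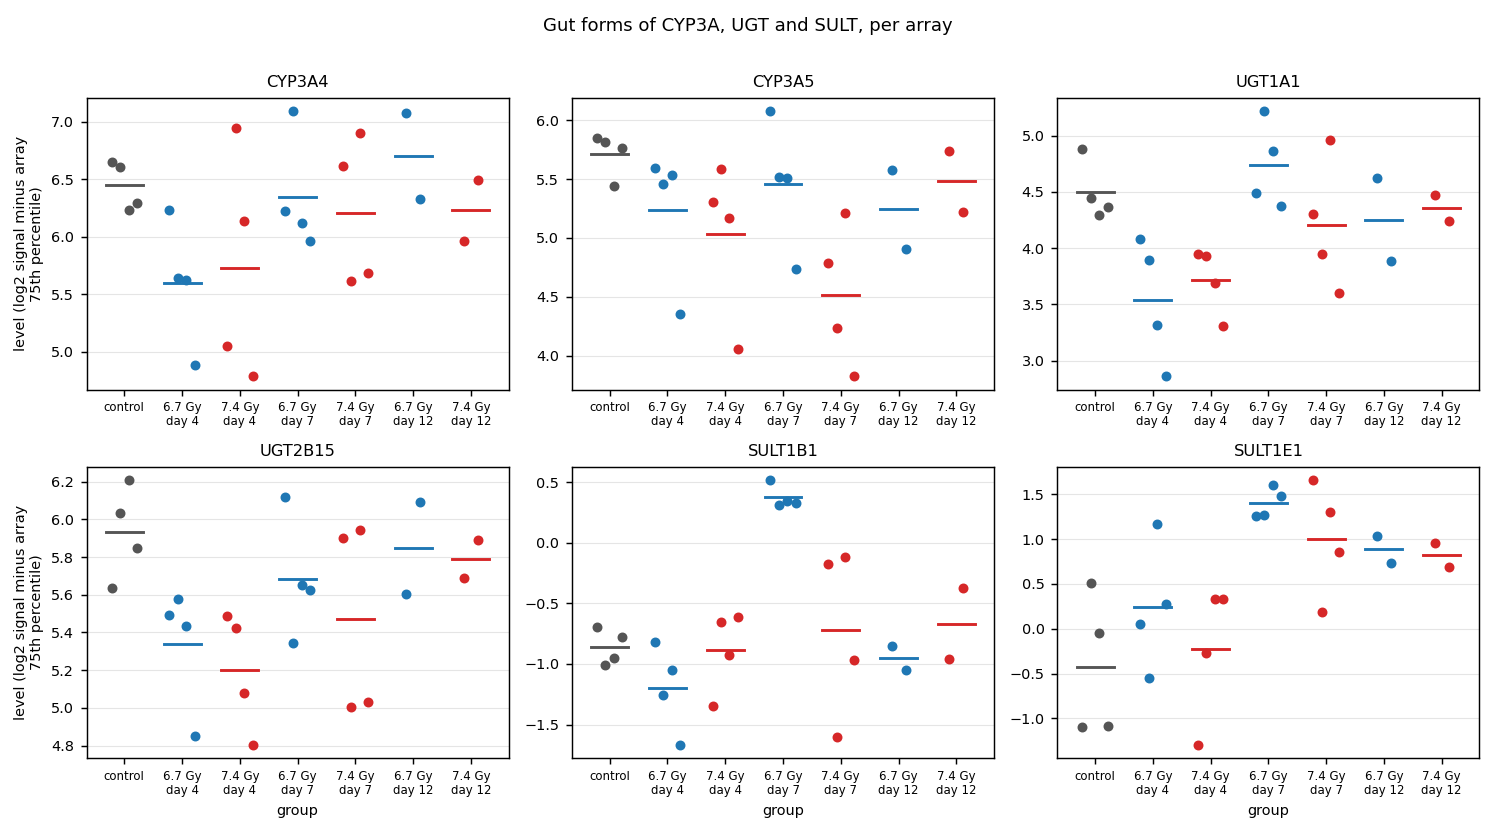
Level (log2 signal less that array's 75th percentile) of CYP3A4, CYP3A5, UGT1A1, UGT2B15, SULT1B1 and SULT1E1 on each array by group, with points for animals, open where not well above background, and bars for group means. UGT1A1 lies between 2.86 and 4.08 on day 4 against 4.30 to 4.88 in controls, and SULT1B1 stands apart on day 7 after 6.7 Gy, at 0.31 to 0.52.

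The other UGT2B probes spread widely between animals of the same group. UGT2B33 (A_01_P1688121) was at 3.39, 5.07, 4.75 and 3.43 in controls, UGT2B9*2 (A_01_P1670576) at 3.02, 5.03, 4.77 and 3.59, and UGT2B4 at 1.18 and 0.85 in replicates 2 and 3 and at -0.75 or lower in the others. The same 2 controls, replicates 2 and 3, were thus high for all 3 genes. The same held for replicate 2 of the 7.4 Gy day 4 group, at 4.94, 4.70 and 1.15, and for replicate 1 of the 6.7 Gy day 7 group, at 5.27, 4.78 and 1.39. Replicate 2 of the 7.4 Gy day 7 group was the lowest array of the series for all 3, at 2.35, 1.67 and -1.77. The log2 changes of the 5 tested probes of these genes against control ran from -0.85 to 0.76 over the 6 irradiated groups, and none was called (limma; none at an unadjusted p under 0.05 and 2-fold). The 3 genes are close paralogs, and how far their probes read the same transcripts was not tested.

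**Figure D4:**
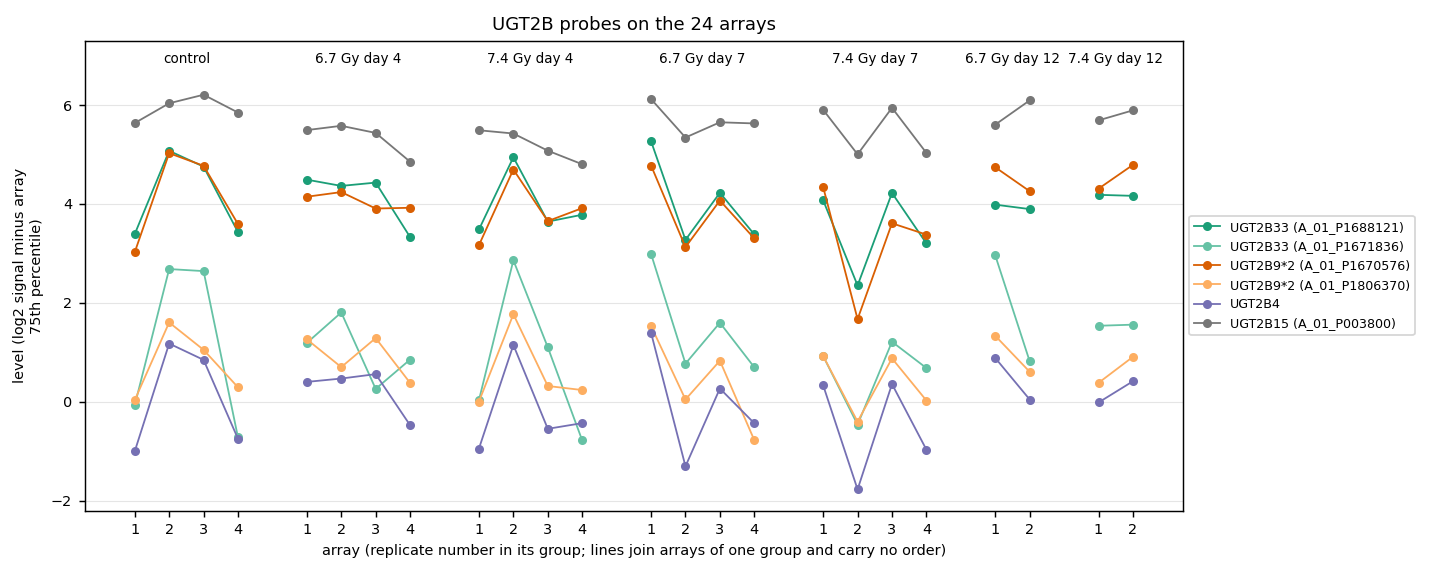
Level (log2 signal less that array's 75th percentile) of 6 UGT2B probes on the 24 arrays, arranged by group and replicate number; lines join arrays of 1 group and carry no order. The UGT2B33, UGT2B9*2 and UGT2B4 lines peak and dip on the same arrays, with control replicates 2 and 3 high and replicates 1 and 4 low.

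UGT3A1, a family member that uses N-acetylglucosamine rather than glucuronic acid, showed the largest log2 change of any tested member. Its first probe (A_01_P009443) was at -3.61, -3.69, -3.63 and -4.16 in controls, 3 of them well above background, and at 1.78 and 1.13 on day 12 after 6.7 Gy. Both animals lay more than 4 log2 units above every control. Both UGT3A1 probes passed the detection filter only through these 2 arrays, so signal there was a condition of testing them, and the p-value is no support beyond the levels. CYP26A1, CYP2A24 and 1 of the tested CYP2A23 probes (A_01_P1670211) also passed through this group alone. The change was 5.23 ± 0.26 (adjusted p = 0.00401), and without the filter it was not called (adjusted p = 0.0791). With all arrays set to a common detection floor it was 3.30 and not called. Against the controls on slides 3 and 4 the animals were higher by 5.41 and 5.28, and with slide as a block the change was 5.35 (adjusted p = 0.124). The second probe (A_01_P1751636) was at -2.18 and -3.08 in the same animals and -7.07 to -5.60 in controls, of which 1 was well above background. Over all 24 arrays it was well above background on 6, and with a common floor its change was 0.00.

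Of the other animals, 2 had UGT3A1 signal above -2, both on day 7 after 6.7 Gy: replicate 1 at 0.80 and replicate 3 at -1.18, against -3.25 and -4.63 in replicates 2 and 4. The second probe was likewise highest in these 2 of the 4, at -3.32 and -4.95. On day 4 after 6.7 Gy the first probe was at -4.80, -3.64, -4.33 and -2.99, and the difference of day 12 from day 4 was 5.39 ± 0.92 (adjusted p = 0.0102; lost without either day 12 array, at 5.06 and 5.72, adjusted p from 0.0625 to 0.0914). No array given 7.4 Gy exceeded -2.80. On day 12 the 7.4 Gy animals were at -4.26 and -3.41, and the difference between doses, -5.29 (95% interval -7.51 to -3.07), was not called (adjusted p = 0.442). It was called with a common floor (-3.30, adjusted p = 0.0199), and without replicate 2 of the 7.4 Gy day 12 group it was -5.72. The doses lay on different slides and scan days on day 12, so dose and slide cannot be told apart there.

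FABP6, the ileal bile acid binding protein and a marker of the distal small bowel, was high in the same 2 day 12 animals, at 5.29 and 5.00, against -2.70 to -1.25 in controls. It was also high in replicates 1 and 2 of the 6.7 Gy day 4 group (4.97 and 4.44) and in replicate 1 of the 7.4 Gy day 4 group (5.88), where UGT3A1 was at -4.80, -3.64 and -4.18. In replicate 1 of the 6.7 Gy day 7 group the reverse held, with UGT3A1 at 0.80 and FABP6 at -0.85, while in replicate 3 of that group both were raised, at -1.18 and 3.22. SLC10A2, the ileal bile acid transporter, was at -5.13 and -3.44 in the day 12 animals, at -5.50 to -4.77 in controls, and highest in replicate 1 of the 7.4 Gy day 12 group (-0.29) and of the 7.4 Gy day 4 group (-1.07). On day 12 after 6.7 Gy FABP6 was called higher by 7.28 ± 0.39 (adjusted p = 0.00401), and of the 28171 probes tested it and UGT3A1 were the 2 called against control in that group. Both FABP6 and SLC10A2 were called higher on day 4 after 6.7 Gy (by 4.97 and 1.73). The part of tissue position along the bowel in the UGT3A1 result was not tested.

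**Figure D5:**
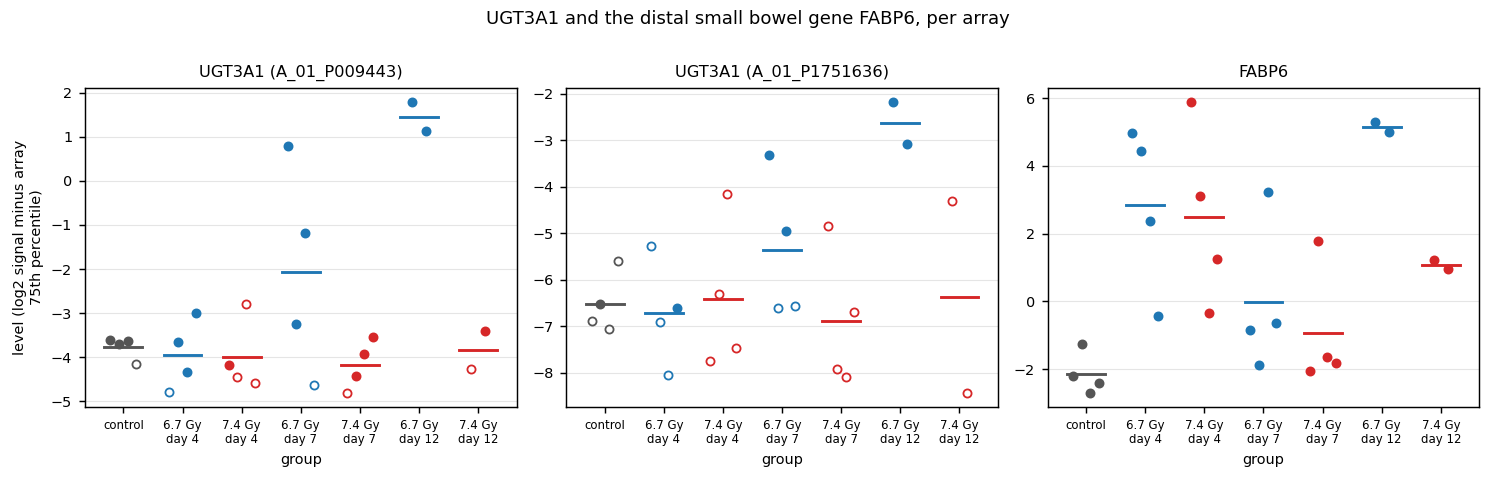
Level (log2 signal less that array's 75th percentile) of the 2 UGT3A1 probes and of FABP6 on each array by group; points are animals, open where not well above background, and bars are group means. Both 6.7 Gy day 12 animals are high in all 3 panels, while several day 4 animals are high for FABP6 and not for UGT3A1.

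The sulfotransferases gave 1 fall and 1 rise. SULT2A1, which sulfates bile acids and dehydroepiandrosterone, was at 2.72, 2.75, 2.32 and 3.14 in controls and at 1.80, 1.47, 1.57 and 0.75 on day 4 after 6.7 Gy. All 4 irradiated animals were below all controls, and the change was -1.33 ± 0.26 (adjusted p = 0.0296), or 2.52-fold lower. It was called in 2 of 8 fits without 1 array, those without control replicate 3 or irradiated replicate 1; without any other array it was -1.39 to -1.12 (adjusted p from 0.0534 to 0.0844). With slide or position as a block it was -1.57 and -1.10 and not called (adjusted p = 0.191 and 0.272). Of 13 settings other than leaving out 1 array, 5 kept the call. Those that ended it included the common floor, no filter on dim probes and the methods' t-test. After 7.4 Gy the levels were 2.14, 1.93, 2.22 and 1.10 and the change -0.88 ± 0.28 (adjusted p = 0.0953, not called). On day 7 after 7.4 Gy replicate 4 was at 0.48, the lowest array of the series.

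SULT1B1, a gut and liver form that sulfates thyroid hormones and small phenols, was at -0.70, -1.01, -0.95 and -0.78 in controls and at 0.52, 0.31, 0.35 and 0.32 on day 7 after 6.7 Gy. These 4 animals were the highest of the series and differed from each other by an SD of 0.10. The change against control was 1.23 ± 0.14 (adjusted p = 0.0287), and the difference from day 4 was 1.57 ± 0.26 (adjusted p = 0.00343). The first was lost when any 1 of its 8 arrays was left out (1.18 to 1.28, adjusted p from 0.0517 to 0.127), and the second was kept in all 8 such fits. Against the control on the same slide, the 4 animals were higher by 1.21, 1.32, 1.29 and 1.10, and with slide as a block the change was 1.23 (adjusted p = 0.164). After 7.4 Gy the day 7 levels were -0.18, -1.61, -0.12 and -0.97, with 2 animals inside or below the control range. The difference between doses on day 7 was -1.09 (95% interval -1.64 to -0.54, adjusted p = 0.589).

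SULT1E1, the estrogen sulfotransferase, was above control in mean in all 6 irradiated groups, by 0.67 and 0.21 on day 4, 1.84 and 1.43 on day 7 and 1.32 and 1.25 on day 12, with the lower dose first. None was called (limma; the 4 changes of days 7 and 12 were at an unadjusted p under 0.05 and 2-fold). On day 7 after 6.7 Gy the animals were at 1.25, 1.27, 1.61 and 1.49, all above the highest control (0.51; the others at -1.10, -0.05 and -1.09). The phenol sulfotransferase probes SULT1A2 and SULT1A3 were flat, with changes from -0.22 to 0.16 in the day 4, day 7 and 7.4 Gy day 12 groups, and from -0.61 to -0.49, without overlap with controls, on day 12 after 6.7 Gy, none called (limma; none at an unadjusted p under 0.05 and 2-fold). SULT1C4 changed by -0.34 to -0.00. SULT1C3 was at -2.83 and -0.34 on day 12 after 6.7 Gy against -3.08 to -2.32 in controls, a change of 1.26 ± 0.63 (adjusted p = 0.744).

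The glutathione S-transferases held the most stable fall. GSTA1, the main alpha class enzyme of enterocytes and hepatocytes, was read by a pair of probes. The first (A_01_P1744856) was at 6.81, 6.32, 6.83 and 6.30 in controls, at 4.09, 4.27, 3.81 and 3.07 on day 4 after 6.7 Gy and at 1.26, 3.97, 5.09 and 4.56 after 7.4 Gy. The second (A_01_P1744861) was at 6.27, 6.23, 6.02 and 5.64 in controls, at 4.43, 3.75, 4.00 and 4.08 after 6.7 Gy and at 3.23, 3.68, 4.73 and 4.00 after 7.4 Gy. All 8 irradiated animals were below all controls by both probes. The lowest was replicate 1 of the 7.4 Gy group, which the first probe placed far below the rest.

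The log2 changes of the first GSTA1 probe were -2.75 ± 0.27 (adjusted p = 0.0033) after 6.7 Gy and -2.85 ± 0.72 (adjusted p = 0.0551, not called) after 7.4 Gy. Those of the second were -1.98 ± 0.20 (adjusted p = 0.00353) and -2.13 ± 0.31 (adjusted p = 0.0114), or 3.94-fold and 4.39-fold lower. The 3 called changes were kept in all 8 fits without 1 array. On slides that held a control and a day 4 array, the second probe differed by -2.26 and -2.16 (6.7 Gy) and -2.80 and -1.97 (7.4 Gy). At position 1 alone, with 2 arrays given 6.7 Gy and the 4 controls, the differences were -2.38 and -1.95 by the first and second probe. With slide as a block no GSTA1 change was called (-3.12 and -2.21 after 6.7 Gy and -2.38 for the second probe after 7.4 Gy, adjusted p = 0.113, 0.133 and 0.281), and with position as a block the second probe was called after 6.7 Gy (adjusted p = 0.0313) and not after 7.4 Gy (-2.09, adjusted p = 0.279), and the first was not called after 6.7 Gy (adjusted p = 0.147).

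On day 7 every animal lay above every day 4 animal of its dose by both GSTA1 probes. The first probe was at 6.93, 6.31, 5.63 and 4.76 after 6.7 Gy and at 6.86, 5.85, 7.35 and 6.22 after 7.4 Gy, against 6.30 to 6.83 in controls. After 6.7 Gy 2 of the 4 were thus below all controls, and the difference from control was -0.66 (95% interval -1.58 to 0.27, not called). After 7.4 Gy it was 0.00 (95% interval -0.72 to 0.73). The second probe was at 6.47, 6.54, 6.22 and 5.92 after 6.7 Gy and at 6.52, 5.45, 6.97 and 5.71 after 7.4 Gy. Its log2 difference from day 4 was 2.22 ± 0.32 (adjusted p = 0.00148) and 2.25 ± 0.32 (adjusted p = 0.0016), each kept in all 8 fits without 1 array. The first probe was called at 7.4 Gy (2.85 ± 0.62, adjusted p = 0.0139) and not at 6.7 Gy (2.09 ± 0.62, adjusted p = 0.058). Against control the second probe differed on day 7 by 0.25 (95% interval -0.20 to 0.70) and 0.12 (95% interval -0.63 to 0.88). On day 12 it was at 5.99 and 5.51 after 6.7 Gy and 5.53 and 6.18 after 7.4 Gy, above day 4 by 1.69 ± 0.39 (adjusted p = 0.036) and 1.94 ± 0.39 (adjusted p = 0.0136). The day 12 call at 6.7 Gy was lost in 5 of 6 fits without 1 array (all but day 4 replicate 1; 1.45 to 1.92, adjusted p from 0.0616 to 0.303), and that at 7.4 Gy was lost without either day 12 array (1.62 and 2.27, adjusted p from 0.0672 to 0.104).

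GSTA3, an alpha class enzyme of steroid hormone synthesis, was at -0.59, -0.63, -0.53 and -1.97 in controls, at -1.95, -2.25, -2.13 and -1.49 on day 4 after 6.7 Gy and at -2.08, -2.46, -0.92 and -1.61 after 7.4 Gy. With control replicate 4 among the day 4 values, neither change was called (-1.03 ± 0.33 and -0.84 ± 0.41, adjusted p = 0.124 and 0.243). Without that control the change after 6.7 Gy was -1.37 and called (adjusted p = 0.0229). On day 7 it was at 0.31, -0.94, -0.20 and -0.04 and at 0.61, -0.85, -0.40 and 0.14, above day 4 by 1.74 ± 0.43 (adjusted p = 0.0281) and 1.64 ± 0.43 (adjusted p = 0.034). The 6.7 Gy call was lost without day 4 replicate 2 or 3 or day 7 replicate 1 or 3 (1.56 to 1.73, adjusted p from 0.0639 to 0.0882). The 7.4 Gy call was lost without day 4 replicate 1 or 2 or day 7 replicate 1, 3 or 4 (1.40 to 1.73, adjusted p from 0.0568 to 0.109).

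GSTZ1, the zeta class enzyme of tyrosine breakdown (maleylacetoacetate isomerase), was at -1.28, -1.86, -1.50 and -1.70 in controls and at -2.98, -2.98, -2.47 and -2.25 on day 4 after 6.7 Gy, the first of these not well above background. The change was -1.09 ± 0.21 (adjusted p = 0.0317), and it was called without day 4 replicate 4 alone; without any other array it was -1.18 to -0.98 (adjusted p from 0.0563 to 0.0847). It was not called with slide (-0.79, adjusted p = 0.292) or position (-1.40, adjusted p = 0.0567) as a block, and with a common detection floor on all arrays it was -0.27. After 7.4 Gy it was -1.07 ± 0.32 (adjusted p = 0.0856). On day 7 after 6.7 Gy the levels were -1.29, -1.69, -1.42 and -1.57, and the difference from day 4 was 1.18 ± 0.28 (adjusted p = 0.0224; lost without replicate 1 or 2 of day 4 or replicate 1 or 3 of day 7, at 1.07 to 1.15, adjusted p from 0.051 to 0.0708). With a common floor this difference was 0.36, and 6 of 12 other settings kept its call.

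Other GSTs fell less or not at all. GSTK1, the mitochondrial and peroxisomal kappa class enzyme, was below all controls on day 4 and passed the adjusted p after 7.4 Gy (adjusted p = 0.0214), but its change of -0.88 ± 0.16 was under 2-fold. After 6.7 Gy it was -0.78 ± 0.19 (adjusted p = 0.0597). GSTO1, an omega class enzyme that reduces dehydroascorbate, was lower by -0.67 and -0.75 (its 2 probes) on day 4 after 6.7 Gy, with no call, and higher on day 7 than on day 4 at that dose by 0.75 by both probes (adjusted p = 0.0196 and 0.0496, under 2-fold). GSTP1 changed by -0.24 and -0.28 on day 4, and GSTA4, which detoxifies the lipid aldehyde 4-hydroxynonenal, by 0.08 and 0.24. The GSTM and GSTT probes, also with no call in the 13 comparisons (limma; GSTM1 reached an unadjusted p under 0.05 and 2-fold in 2 of them, 1.06 on day 12 after 6.7 Gy against control and -1.45 between doses on day 12), changed by -0.51 to 0.46 on day 4.

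None of the 65 probes was called between 7.4 Gy and 6.7 Gy on day 4, 7 or 12 (limma; 0% of all probes called; 3, 3 and 4 members at an unadjusted p under 0.05 and 2-fold, beside 0.277%, 0.735% and 1.88% of all probes; none by the methods' t-test). For the second GSTA1 probe the day 4 difference was -0.15 (95% interval -0.81 to 0.50), and for CYP2D6 it was -0.02 (-1.81 to 1.77). Among those at the unadjusted limits on day 4 were CYP2C75 and CYP2C8 (A_01_P1730071), at -1.23 and -1.30.

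Genes that serve these enzymes were read from lists of the pathway's other members. Of 14 tested genes for electron donors and cofactor supply, 2 were lower on day 4 at both doses: CYB5A, the cytochrome b5 that passes electrons to CYPs (-1.44 and -1.60, adjusted p = 0.0119 and 0.0036), and SLC26A2, a sulfate transporter (-1.95 and -2.36, adjusted p = 0.00476 and 0.00632). Both were higher on day 7 than on day 4 after 6.7 Gy, by 1.11 and 1.96 (adjusted p = 0.00245 and 0.00658). The list median was -0.37 and -0.32 on day 4. POR, the P450 oxidoreductase, changed by -0.51 and -0.73, under 2-fold.

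Of 24 tested genes for other drug-metabolizing enzymes, 1 was called lower on day 4 after 6.7 Gy and 4 after 7.4 Gy, with list medians of -0.72 and -0.70. MGST2, a membrane-bound glutathione transferase, was called at both doses (-1.12 and -1.24). MGST1, the aldehyde dehydrogenase ALDH1A1 and the carboxylesterase CES2 were called after 7.4 Gy (-1.03, -1.23 and -1.04). On day 7 after 6.7 Gy, 5 of the 24 were higher than on day 4, among them the quinone reductase NQO1 (1.81, adjusted p = 0.00242) and ALDH1A1 (1.70, adjusted p = 0.00314).

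Of 11 tested xenobiotic receptors and regulators, none was called against control on day 4 (limma; NR1I2, the pregnane X receptor, changed by -0.69 and -0.66 with adjusted p = 0.113 and 0.0773), and 10 of 11 lay below control at each dose, with medians of -0.31 and -0.38. NR5A2, a nuclear receptor of the crypt and villus, was higher on day 12 than on day 4 (1.37 and 1.12, adjusted p = 0.031 and 0.0451). Of 8 NFE2L2 targets tested, HMOX1 was lower on day 4 at both doses (-1.19 and -1.33, adjusted p = 0.0321 and 0.0156). The drug efflux transporters had medians of -0.22 and 0.07 on day 4, and of 9 tested, ABCC5 was lower on day 12 than on day 4 after 7.4 Gy (-1.10) and SLC51B higher after 6.7 Gy (1.04 on day 7 and 1.13 on day 12).

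Markers of other cells and of neighbouring tissue moved beside the day 4 results. All 14 absorptive enterocyte markers on the array were tested, and 3 were called lower after 6.7 Gy (FABP1, RBP2 and VIL1 at -1.56, -1.50 and -1.58) and 2 after 7.4 Gy (FABP1 and RBP2 at -1.23 and -1.44), with list medians of -0.37 and -0.32. Their mean level ran from 4.35 to 4.81 in controls, from 3.81 to 4.28 on day 4 after 6.7 Gy and from 3.79 to 4.38 after 7.4 Gy, with at least 13 of 14 markers well above background on every array. Of the 5 tested fibroblast markers, 4 (COL1A2, COL3A1, LUM and DCN) were higher on day 4 after 7.4 Gy, with medians of 0.80 and 1.14 at the 2 doses. The mean level of the 6 fibroblast markers on the array ran from 0.74 to 1.14 in controls, 1.34 to 1.53 after 6.7 Gy and 1.56 to 2.27 after 7.4 Gy. The 3 tested liver markers had medians of 1.07 and 1.57 on day 4, with none called (limma; 1 at each dose, APOH and FGB, at an unadjusted p under 0.05 and 2-fold). The mean level of the 5 liver markers on the array ran from -3.10 to -2.59 in controls, -2.85 to -1.72 after 6.7 Gy and -2.44 to -0.86 after 7.4 Gy. The 2 tested distal small bowel markers, FABP6 and SLC10A2, had the largest list medians on day 4, 3.35 and 3.37, both called after 6.7 Gy and neither after 7.4 Gy (limma, FABP6 at 4.61 and adjusted p = 0.0506). Their mean level ran from -4.07 to -3.01 in controls, -2.55 to 1.06 after 6.7 Gy and -2.21 to 2.41 after 7.4 Gy. SLC51B, listed here under its older symbol OSTB, was read among the efflux transporters, none of which was called against control on day 4.

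Single markers of other lists were also called on day 4. CTRB1, a pancreatic protease precursor and 1 of 3 tested pancreas markers, was higher at both doses (1.08 and 1.33), while the mean level of the 6 pancreas markers on the array ran from -3.38 to -2.04 in controls, -3.08 to -2.45 after 6.7 Gy and -2.98 to -1.63 after 7.4 Gy. MZB1, of 3 tested B and plasma cell markers, was lower (-1.71 and -1.84). HBB, of 3 tested erythroid markers, was lower by far more (-6.92 and -6.38), with list medians of -0.45 and -0.54. The stem cell marker OLFM4, of 8 crypt markers, and CD14, of 5 macrophage and granulocyte markers, were higher after 7.4 Gy (3.40 and 1.25). No marker of goblet cells, smooth muscle or T cells was called on day 4 (limma; medians from -0.51 to 0.41; 1, the goblet cell gene AGR2, at an unadjusted p under 0.05 and 2-fold at both doses, -1.07 and -1.53).

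Marker levels also moved from day 4 to day 7, beside the rises of GSTA1, GSTA3 and CYP2D6. The enterocyte markers had medians of 0.31 and -0.15 against day 4 at the lower and the higher dose, with RBP2 higher after 6.7 Gy (1.06) and APOB and ANPEP lower after 7.4 Gy (-1.25 and -1.10). Against control, 4 and 0 of the 14 lay above control on day 7, with medians of -0.19 and -0.54, and the marker mean ran from 4.02 to 4.60 and from 3.50 to 4.37. All 5 fibroblast markers were below day 4 at both doses (medians -0.75 and -0.72; none called by limma, with COL1A2 and COL3A1 at an unadjusted p under 0.05 and 2-fold after 6.7 Gy), as were all 5 smooth muscle markers (-0.67 and -0.54), of which ACTA2 was called after 7.4 Gy (-1.01). Of the 8 crypt markers, the cell cycle genes CDK1, TOP2A and CCNB1 were higher than on day 4 after 7.4 Gy (1.20, 1.14 and 1.13). The macrophage gene CSF1R was lower after 7.4 Gy (-1.01), and of the pancreas markers CPB1 was higher and CTRB1 lower after 6.7 Gy (1.55 and -1.06). Both tested distal small bowel markers were below day 4 (medians -2.49 and -2.70), with neither called (limma; both at an unadjusted p under 0.05 and 2-fold at each dose). SLC51B, listed there under its older symbol OSTB and read among the efflux transporters, went the other way after 6.7 Gy and was called higher than on day 4. The part of the tissue's cell makeup in the falls of GSTA1, CYP2D6, SULT2A1 and GSTZ1 and the later rises of GSTA1, GSTA3, CYP2D6 and GSTZ1 was not tested.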

How the data were processed

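RNA from jejunum of 24 rhesus macaques was hybridized to single-color Agilent arrays. The deposited scanner files hold spot intensity values that, per the file headers, came from Feature Extraction 11.0.1.1, whose processed signal is already corrected for background. Log2 values that the authors had scaled to each array's 75th percentile were deposited as 1 table, from which the gene symbols were taken; 99.92% of its values matched the scanner signals so scaled, within 0.01 after centring, while its column medians ran from -0.104 to 0.196 and the exact centring is not given in the sources used here. It was an alternative, not the source of the reported levels.

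Levels were log2 of the processed signal minus the array's 75th percentile over 43603 probes, and limma 3.58.1 (R 4.3.3) was fitted to the 28171 probes tested, with Benjamini-Hochberg adjustment. Control comparisons used the arrays of the groups compared, and day and dose comparisons 1 model of 24 arrays. The scripts were tested on simulated data. No spot was saturated; well-above-background probes numbered 17159 to 38226 per array, and the number of arrays limits precision. Alternatives were normexp on median signals (offset 50), other scalings, a common floor (-1.85), no dim-probe filter, the deposited table, slide, scan day, position or replicate number as a block, the methods' t-test, other choices of arrays and leaving out each array.

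Named genes were members called in any of 13 comparisons, or on a list of 84 enzyme symbols, of which 47 were on the array and 40 tested. Results for 1 of them are not reported here. Members outside both, such as CYP4F8, CYP2A23, UGT2B33, SULT1A2 and SULT1C3, were named after their values were seen, to account for all members. Members and lists were chosen with earlier results of these data known. RefSeq accessions (assembly T2T-MMU8v2.0) matched 65 member probes, 9 of them under another symbol. Replicate numbers do not pair animals, since each was sampled once.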

Additional observations from a re-analysis of the deposited data

Results flagged for a closer look

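Of 90 groups of 4 animals examined, for the probes of the genes described at most length, 6 held an animal far from the rest, where chance gives about 1 in 20. Control replicate 1 had CYP1D1 at -6.17, against -5.17 to -5.00 in the other controls. Control replicate 4 had GSTA3 at -1.97, against -0.63 to -0.53, and UGT3A1 (A_01_P009443) at -4.16, against -3.69 to -3.61. Replicate 4 of the 6.7 Gy day 4 group had CYP3A5 at 4.36, against 5.46 to 5.59. CYP2C75 was at 1.83 in replicate 4 of the 6.7 Gy day 7 group, against 1.44 to 1.47, and at 1.97 in replicate 3 of the 7.4 Gy day 4 group, against 1.15 to 1.16.

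The change from day 4 to a later day passed the test at 1 dose or both for 13 combinations of probe, dose and day. After 6.7 Gy the log2 differences of day 7 from day 4 were 3.45 for CYP2D6, 2.22 for GSTA1, 1.74 for GSTA3, 1.57 for SULT1B1, 1.20 for UGT1A1 and 1.18 for GSTZ1. The day 12 differences at that dose were 5.39 for UGT3A1 and 1.69 for GSTA1. After 7.4 Gy, day 7 differed from day 4 by 2.85 and 2.25 for the 2 GSTA1 probes and by 1.64 for GSTA3, and day 12 by 1.94 for GSTA1 and 1.80 for CYP2F1. Whether these differences themselves differed between doses was not tested.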

How the results depend on the processing

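No log2 change of a single called member turned its direction (that of CYP1D1 was 0.00 with a common floor), and of 458 recomputations of called changes 282 kept the call and 176 lost it. Beside leaving out 1 array, a called change was recomputed in 12 or 13 settings, of which from 2 (CYP1D1) to 12 (the second GSTA1 probe on day 4 after 6.7 Gy) kept the call. Of 1230 recomputations of changes at the unadjusted limits only, 33 passed the threshold. Numbers of members called are given in the order 6.7 Gy then 7.4 Gy. With slide as a block, none was called against control on day 4 at either dose (median after 6.7 Gy -0.43), nor at the lower dose on the later days (0 and 0), while day 12 against day 4 gave 4 and 0. Position as a block left 1 and 0 on day 4. On day 4 few slides held both a control and an irradiated array, and all controls lay at position 1. A call lost in these day 4 fits thus cannot be told apart from too few arrays. The replicate block gave 2 and 1 on day 4, 0 at the lower dose on the later days and 0 in the 4 day comparisons; the correlations of same-numbered arrays ran from -0.17 to 0.26. The methods' t-test gave 2 on day 4 after 6.7 Gy, 0 on the later days at that dose, 1 for day 7 against day 4 after 6.7 Gy and 0 in the other 3 day comparisons.

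Without the filter on dim probes, the counts against control were 2 and 1 on day 4 and 0 at the lower dose later, and those against day 4 were 3 on day 7 at the lower dose and 1 and 1 on day 12. A common floor gave 2 on day 4 at the lower dose, 0 and 2 on day 12, 1 for day 12 against day 4 after 7.4 Gy and 1 between doses on day 12. Normexp gave 2 on day 7 after 6.7 Gy. A model of all arrays gave 0 and 1 on day 7, and 0 on day 12 at the lower dose. Fits of only the compared groups gave 0 for day 12 against day 4 at both doses and 0 for day 7 after 7.4 Gy. Scan day as a block gave 1 for day 12 against day 4 after 7.4 Gy. Leaving out the slide 5 arrays, chosen after seeing the data, gave 1 and 0 for days 7 and 12 against day 4 after 7.4 Gy.

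Without 1 array in turn, counts against control ran from 2 to 5 and 2 to 3 on day 4, 0 to 0 and 0 to 2 on day 7, and 1 to 1 and 0 to 2 on day 12; against day 4 they ran from 3 to 8 and 2 to 4 on day 7 and 0 to 2 and 0 to 3 on day 12; between doses they reached 1 on day 12. The member medians near 0 changed sign: that of day 7 after 6.7 Gy against control ran from -0.11 to 0.05 without 1 array, that of day 12 from -0.19 to 0.13, and those between doses on days 4 and 12 from -0.18 to 0.03 and from -0.26 to 0.19. A lone day 12 array was assumed to vary like the other groups. Slide and scan day blocks could not be fitted for day 12 after 7.4 Gy against control. The cause of these changes was not tested. The dim probes CYP1D1, GSTZ1 and UGT3A1 are limited by signal over background on slides 4 and 5.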
